A study of Sus scrofa with 4 samples.

Results

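Glycolysis turns glucose into pyruvate in the cytosol, and lactate dehydrogenase interconverts pyruvate and lactate. A glucose transporter brings the sugar in, hexokinase and phosphofructokinase commit it to the pathway, aldolase splits it, and the enzymes from glyceraldehyde-3-phosphate dehydrogenase to pyruvate kinase return ATP and NADH. Cleavage-stage embryos of several mammals draw mainly on pyruvate and lactate, and their use of glucose increases towards the blastocyst. The 10 genes described here lie along that route, without triose phosphate isomerase or phosphoglycerate mutase. In pathway order they are SLC2A1, HK1, GPI, PFKP, ALDOA, GAPDH, PGK1, ENO1, PKM and LDHB. They were chosen by name, as all rows of the deposited table that carry one of these symbols (16 transcript rows), out of 25560 gene names in the table.

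The samples were pig (Sus scrofa) embryos at the 4-cell stage. One group had the genotype label TFAP2C KD and the treatment label siRNA injection, with 2 libraries, and the other had Control for both labels, with 2 libraries. TFAP2C is a transcription factor of trophectoderm and germ cells. The protocol labels give cytoplasmic injection of siRNA for both groups, and they do not say what the control embryos received, how many embryos made a library or whether replicate libraries were separate pools. A p-value here measures the spread among these 4 libraries alone, which may be technical.

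TFAP2C itself stood at 0.448 and 3.11 FPKM in the columns labelled knockdown 1 and 2, against 14.7 and 7.78 FPKM in those labelled control 1 and 2. FPKM is a fragment number corrected for transcript length and library size, so it allows levels of different genes to be compared. That 1 row of the 35395 carries, in each column, the ratio of coverage to FPKM of a library of the opposite group, so it does not check the labels. The values 0.448 and 3.11 carry the ratios of labelled controls 1 and 2, and 14.7 and 7.78 those of labelled knockdowns 1 and 2. Whether this row or the labels were exchanged was not tested. The 16 rows of the glycolysis genes all carry the ratio of their own library. Groups are therefore called labelled knockdown and labelled control, and every difference is labelled knockdown minus labelled control. RNA of the mitochondrial genome made up 45.8% and 31.9% of transcripts in labelled knockdowns 1 and 2, against 21.7% and 29.1% in labelled controls 1 and 2. All 12 oocyte and early embryo markers reached the testing minimum, among them BMP15 at 624 to 851 FPKM. They summed to 1567 and 1670 FPKM in labelled knockdowns 1 and 2, against 3876 and 3889 FPKM in labelled controls 1 and 2. Of the 12, 4 (ZAR1L, MOS, WEE2 and H1FOO) fell at an adjusted p under 0.05 (limma), against 1.46% of all tested genes. The part of the difference in these 12 markers in the results on glycolysis was not tested. The defining markers of granulosa and cumulus cells, FSHR, LHCGR, AMH and AMHR2, reached at most 0.148 FPKM, and the 17 markers of those cells summed to 21.9 and 15.3 FPKM in the labelled knockdowns and to 20.5 and 14.8 FPKM in the labelled controls. INHBA and FST made up much of those sums, and both stood highest in labelled control 1. The other 15 markers summed to 10.6 and 8.02 FPKM in labelled knockdowns 1 and 2, against 2.75 and 5.10 FPKM in labelled controls 1 and 2. Those sums did not overlap and were higher in the libraries labelled knockdown, as PGK1 and LDHB were. Leaving out INHBA and FST was not planned, and the sums of all 17 overlapped. Among all genes above 0 in some library, 21.0% had both labelled knockdowns above both labelled controls. VCAN, 1 of the 15, was highest in labelled control 2 (2.96 FPKM). The most unequal of the 15 were TNFAIP6 and VIM in labelled knockdown 1 (4.32 and 2.81 FPKM) and DCN in labelled knockdown 2 (3.67 FPKM). Of the 17, 5 were tested and none passed (limma, adjusted p of 0.336 or more), and the part of these markers in the results on glycolysis was not tested. Bulk RNA cannot tell fewer embryos or cells from less RNA per cell.

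Of the 10 genes, only PGK1, a kinase of the ATP-yielding phase, passed the test, and it was about 3.83-fold higher by the means (n = 2 each) in the libraries labelled knockdown. LDHB, summed over 2 loci, was by far the most abundant. It stood 2.41-fold above by the means, a difference that missed the threshold. A locus on chromosome 2 held 82.6% to 88.0% of that LDHB sum in each library. The chromosome 5 locus alone stood below PGK1 in labelled knockdown 1 and above it in the other libraries. The glucose transporter SLC2A1 and GAPDH were tested and did not pass. The remaining 6, HK1, GPI, PFKP, ALDOA, ENO1 and PKM, averaged under 1 FPKM over the 4 libraries and were not tested. LDHB and PGK1 together held 96.3% and 97.1% of the summed FPKM of the 10 genes in labelled knockdowns 1 and 2, against 91.8% and 92.7% in labelled controls 1 and 2.

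**Figure D1:**
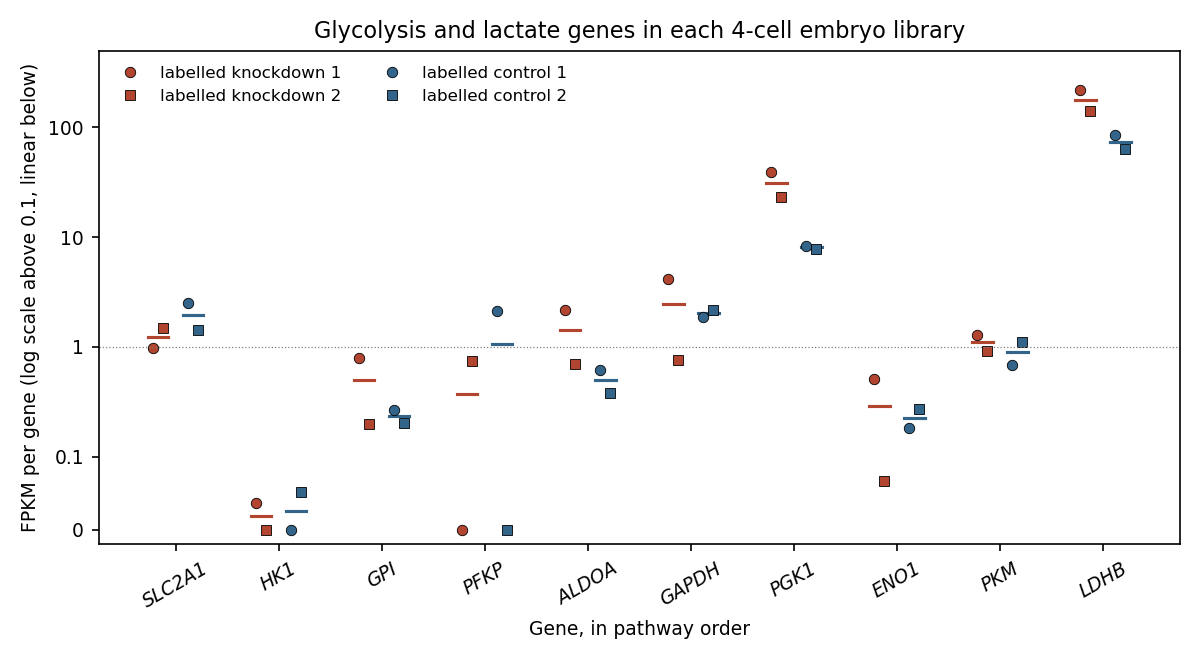
FPKM of each of the 10 genes in each library, in pathway order, with labelled knockdown left of labelled control. Circles are library 1, squares library 2, short lines the mean of 2 libraries, and the dotted line marks 1 FPKM. LDHB (63.8 to 217 FPKM) and PGK1 (7.84 to 38.9 FPKM) sit above the other 8 genes in every library.

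The first steps of the pathway were represented at low levels. SLC2A1, which carries glucose across the plasma membrane (gene ID 102164419, on chromosome 6 from 168535398 to 168561170 of the assembly Sscrofa11.1), stood at 0.971 and 1.47 FPKM in labelled knockdowns 1 and 2, against 2.49 and 1.42 FPKM in labelled controls 1 and 2. Labelled control 1 was the highest library and the groups overlapped. Its log2 fold change was -0.40 (SE 0.33) and did not pass (limma, Benjamini-Hochberg adjusted p = 0.459). HK1, a hexokinase that traps glucose as glucose-6-phosphate (chromosome 14, 72383328 to 72460927), had almost no reads. The table lists it at 0.0366 and 0 FPKM in labelled knockdowns 1 and 2 and at 0 and 0.0516 FPKM in labelled controls 1 and 2. The deposited read depth behind those values was at most 0.363 reads per base, and each group held 1 library at 0.

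GPI, the isomerase that makes fructose-6-phosphate (chromosome 6, 44038374 to 44069331), stood at 0.794 and 0.199 FPKM in the labelled knockdowns, against 0.267 and 0.201 FPKM in the labelled controls. Labelled knockdown 1 was the highest library, and labelled knockdown 2 was the lowest. PFKP, one of the phosphofructokinases of the committed step (chromosome 10, 67022652 to 67082336), varied within both groups. The table lists it at 0 and 0.743 FPKM in labelled knockdowns 1 and 2 and at 2.12 and 0 FPKM in labelled controls 1 and 2. Each group held a library at 0 beside 1 with a mean depth of 6.56 reads per base (labelled knockdown 2) or 14.2 reads per base (labelled control 1), so the libraries of a group differed by more than the groups did.

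ALDOA, the aldolase of muscle and many other tissues (gene ID 110260081, chromosome 3, 18246036 to 18260167), stood at 2.15 and 0.703 FPKM in the labelled knockdowns, against 0.620 and 0.384 FPKM in the labelled controls. The groups did not overlap, but labelled knockdown 2 lay close to labelled control 1. The reads of labelled knockdown 1 were all placed on 1 transcript row that was listed at 0 in the other 3 libraries, and theirs on a different row of the same gene. The last ALDOA row was at 0 in all 4 libraries. These 3 rows are 3 of the 9 ALDOA transcripts in RefSeq, and no other row of the deposited table was matched to ALDOA.

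GAPDH, which makes NADH and is a common reference gene (gene ID 396823, chromosome 5, 64129678 to 64135194), stood at 4.12 and 0.762 FPKM in labelled knockdowns 1 and 2, against 1.88 and 2.18 FPKM in labelled controls 1 and 2. Both extremes were labelled knockdowns, and the labelled controls lay between them. Its log2 fold change of -0.01 (SE 0.53) did not pass (limma, Benjamini-Hochberg adjusted p = 0.993), and its sign turned with the scaling and with the libraries used, to 0.09 after median-ratio scaling and 0.76 without labelled knockdown 2. The 2 rows of GAPDH, 2 of its 3 transcripts in RefSeq, differed in where they were found. The row XM_021091114.1 held 4.01 FPKM in labelled knockdown 1 and was listed at 0 in labelled knockdown 2 and both labelled controls. The row XR_002343817.1, whose prefix marks a RefSeq model of a non-coding transcript, stood at 0.110 and 0.762 FPKM in labelled knockdowns 1 and 2, against 1.88 and 2.18 FPKM in labelled controls 1 and 2. With the most abundant row in place of the sum, the log2 fold change was -1.11 and GAPDH again did not pass (adjusted p = 0.173, limma).

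PGK1, the phosphoglycerate kinase that makes the first ATP of the pathway (gene ID 407608, chromosome X, 62187472 to 62210321), stood at 38.9 and 23.2 FPKM in labelled knockdowns 1 and 2, against 8.39 and 7.84 FPKM in labelled controls 1 and 2. Both labelled knockdowns were above both labelled controls, which were nearly equal. The means were 31.07 ± 11.12 FPKM in the labelled knockdowns and 8.12 ± 0.385 FPKM in the labelled controls (SD, n = 2 each). PGK1 rose by 1.77 on the log2 scale, with an SE of 0.34 and a Benjamini-Hochberg adjusted p = 0.0422 in limma, and the depth behind it was 236 and 205 reads per base in the labelled knockdowns, against 56.1 and 55.1 in the labelled controls. The call was lost without any single library, with adjusted p = 0.200 without labelled knockdown 1, 0.0909 without labelled knockdown 2, 0.127 without labelled control 1 and 0.102 without labelled control 2 (limma, Benjamini-Hochberg). It was also lost with TPM (adjusted p = 0.056, limma) and with a pseudocount of 0.1 (0.0535), while its log2 fold change stayed between 1.41 and 2.13 over 16 alternatives.

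Across all tested genes, 503 of 9850 (5.11%) rose and 144 (1.46%) fell in labelled knockdown libraries at an adjusted p under 0.05, so the 1 call among the 4 tested glycolysis genes is set against that background. Groups without overlap were also common. Of the 10 genes, 3 (PGK1, LDHB and ALDOA) had both labelled knockdowns above both labelled controls and none had both below. Among 22933 genes with a value above 0 in some library, 21.0% had both labelled knockdowns above and 24.0% had both below. The median log2 fold change was 0.61 over the 4 tested members and -0.13 over all tested genes. With TPM the median of all tested genes was -0.37, and it was -0.005 after median-ratio scaling. Relative to it, PGK1 was higher by a similar amount under both, since its log2 fold change was 1.55 with TPM and 1.91 after median-ratio scaling.

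ENO1, the enolase of most tissues (chromosome 6, 69385879 to 69401664), stood at 0.508 and 0.0672 FPKM in labelled knockdowns 1 and 2, against 0.181 and 0.272 FPKM in labelled controls 1 and 2. As with GAPDH, the labelled controls lay between the 2 labelled knockdowns. The 1 ENO1 row is 1 of 3 transcripts in RefSeq. PKM, the pyruvate kinase that closes glycolysis (chromosome 7, 60971807 to 61032780), stood at 1.29 and 0.924 FPKM in the labelled knockdowns, against 0.683 and 1.10 FPKM in the labelled controls, and the groups overlapped. Its mean over the 4 libraries was just under the testing minimum of 1 FPKM. The 3 PKM rows of the deposited table are 3 of 22 transcripts in RefSeq.

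LDHB is the lactate dehydrogenase subunit typical of heart (H subunit). Summed over its loci, LDHB ranked 472 of 25560 genes by mean FPKM, while PGK1 ranked 2548 and the next, GAPDH, 7654. It stood at 217 and 141 FPKM in labelled knockdowns 1 and 2, against 84.5 and 63.8 FPKM in labelled controls 1 and 2. The groups did not overlap, and the lower labelled knockdown was well above the higher labelled control. The means were 179 ± 54.1 FPKM in the labelled knockdowns and 74.2 ± 14.6 FPKM in the labelled controls (SD, n = 2 each). The log2 fold change of 1.24 (SE 0.33) missed the threshold (limma, Benjamini-Hochberg adjusted p = 0.0853), and the adjusted p lay between 0.0688 and 0.286 over 15 alternatives, with log2 fold changes of 0.93 to 1.55.

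The LDHB symbol covers 2 genes in RefSeq. The first (gene ID 100621540) spans only 1280 bases of chromosome 2, from 12988754 to 12990033, and the second (gene ID 102161427) spans 20287 bases of chromosome 5, from 51810932 to 51831218. Such a short span is typical of a copy without introns, and reads may be shared between the loci in ways the table does not show. The chromosome 2 locus stood at 191 and 116 FPKM in the labelled knockdowns, against 73.8 and 52.8 FPKM in the labelled controls. It made up 88.0% and 82.6% of LDHB in labelled knockdowns 1 and 2, against 87.4% and 82.7% in labelled controls 1 and 2. Library 1 had the larger share in both groups, and the groups overlapped.

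The chromosome 5 locus stood at 26.0 and 24.5 FPKM in the labelled knockdowns, against 10.7 and 11.0 FPKM in the labelled controls, with a close pair of libraries in each group. Its 1 row is 1 of 2 transcripts of that gene in RefSeq. Tested apart in limma, the chromosome 5 locus differed by 1.15 on the log2 scale (SE 0.26, adjusted p = 0.0617). The chromosome 2 locus differed by 1.24 (SE 0.36, adjusted p = 0.0965, limma). Both loci thus stood higher in every labelled knockdown library and neither passed the threshold.

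LDHA, the subunit typical of muscle, did not separate the groups. It stood at 32.2 and 37.2 FPKM in the labelled knockdowns, against 25.4 and 76.0 FPKM in the labelled controls, and both labelled knockdowns lay between the labelled controls. LDHC, the testis subunit in other mammals, stood at 22.6 and 19.1 FPKM in the labelled knockdowns and 19.4 and 25.1 FPKM in the labelled controls. LDHB made up 79.8% and 71.4% of the summed LDHA, LDHB and LDHC FPKM in labelled knockdowns 1 and 2, against 65.4% and 38.7% in labelled controls 1 and 2. The shares averaged 75.6% ± 5.97 in the labelled knockdowns and 52.0% ± 18.9 in the labelled controls (SD, n = 2 each), and the exact two-sided permutation test gave p = 0.333, the smallest that 2 libraries against 2 allow. Without the chromosome 2 locus, LDHB made up 32.2% and 30.3% in the labelled knockdowns, against 19.2% and 9.82% in the labelled controls.

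**Figure D2:**
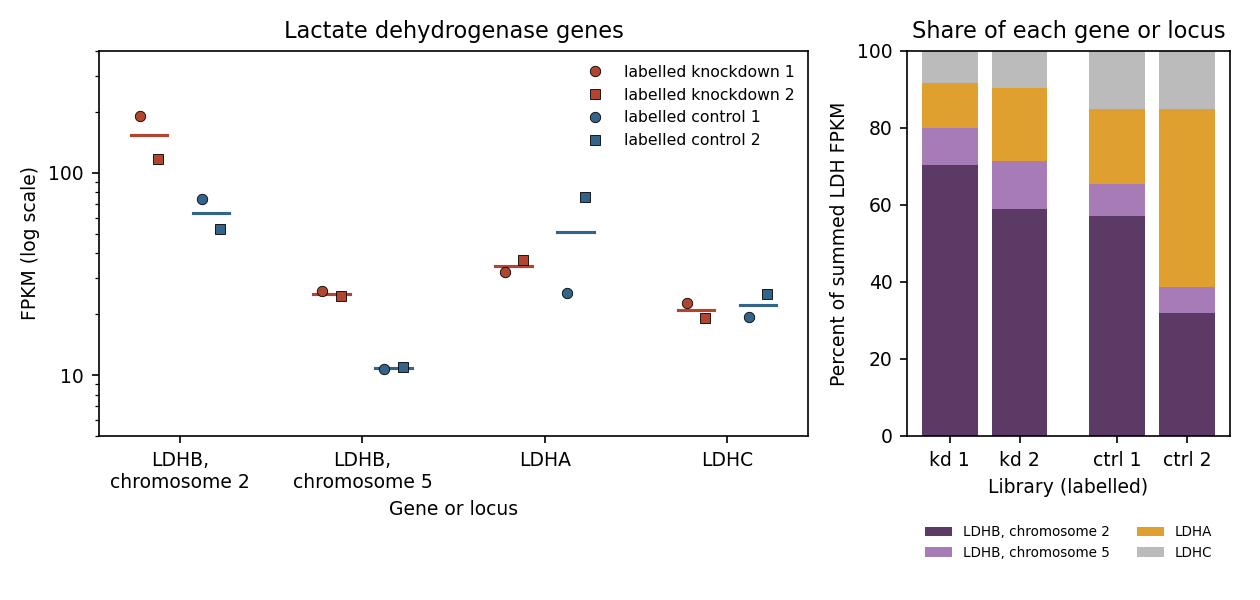
Left, FPKM of the 2 LDHB loci, LDHA and LDHC in each library on a log axis, labelled knockdown left of labelled control (circles library 1, squares library 2, lines the mean of 2). Right, the share of each in the summed FPKM per library (kd, labelled knockdown, ctrl, labelled control); LDHB is 79.8% and 71.4% in the labelled knockdowns and 65.4% and 38.7% in the labelled controls.

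The 8 genes other than LDHB and PGK1 summed to 9.88 and 4.87 FPKM in the labelled knockdowns, against 8.24 and 5.61 FPKM in the labelled controls. The sums overlapped, and labelled knockdown 1 was the highest library. Of the 10 genes, 8 were higher in labelled knockdown 1 than in labelled knockdown 2, against 47.5% of all tested genes. The 10 include 6 that were too low to be tested, so the shares cover unlike sets. Labelled knockdown 1 was also the library with the largest mitochondrial share. With TPM recomputed without mitochondrial rows, an alternative chosen after seeing the data, PGK1 differed by 1.85 on the log2 scale (adjusted p = 0.0615, limma) and LDHB by 1.26.

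Other enzymes of glycolysis were read from a list of 19, of which 9 were tested, 1 rose and none fell. PGAM1, the phosphoglycerate mutase that acts right after PGK1 (chromosome 14, 108822782 to 108832818), stood at 9.16 and 7.58 FPKM in the labelled knockdowns, against 0.0141 and 0.0193 FPKM in the labelled controls. The depth behind it was 55.6 and 67.0 reads per base in the labelled knockdowns and 0.0946 and 0.136 in the labelled controls. PGAM1 rose by 3.20 on the log2 scale (SE 0.28, adjusted p = 0.00794, limma), a size that depends on the pseudocount (6.18 with 0.1). It reached the testing minimum of 1 FPKM through the labelled knockdowns alone, so the filter and the test draw on the same values. With no filter the call was lost (adjusted p = 0.159, limma). The call was lost without labelled knockdown 1 (adjusted p = 0.127, limma) or labelled knockdown 2 (0.0709).

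PGK2, an intronless relative of PGK1 that is expressed in testis in other mammals and was chosen for mention after its values were seen, stood at 10.7 and 6.55 FPKM in the labelled knockdowns, against 2.91 and 3.46 FPKM in the labelled controls. It did not pass (limma, Benjamini-Hochberg adjusted p = 0.0925), and reads may be shared between PGK1 and PGK2, which was not measured. TPI1, the triose phosphate isomerase, stood at 10.03 and 1.89 FPKM in the labelled knockdowns and 3.83 and 4.14 FPKM in the labelled controls. That is the order of libraries seen for GAPDH and ENO1, with both labelled knockdowns outside the labelled controls.

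HK2, the insulin-responsive hexokinase, stood at 3.15 and 1.76 FPKM in the labelled knockdowns, against 0.601 and 1.92 FPKM in the labelled controls, so hexokinase RNA was mostly HK2 and hardly HK1 in all 4 libraries. PFKM, the muscle phosphofructokinase, stood at 3.61 and 1.81 FPKM in the labelled knockdowns and 3.54 and 2.31 FPKM in the labelled controls. PFKL, ENO2 and ENO3 were at or under 0.107 FPKM in every library. HK2 and PFKM were tested and did not pass, and PFKL, ENO2 and ENO3 were too low to test. ADPGK, an ADP-dependent glucokinase chosen for mention as the most abundant enzyme of that list, stood at 45.3 and 52.5 FPKM in the labelled knockdowns, against 92.3 and 105 FPKM in the labelled controls. The groups did not overlap, and it missed the threshold (limma, Benjamini-Hochberg adjusted p = 0.0849).

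Of 12 other glucose transporters 2 were tested and neither passed. SLC2A3, a high-affinity transporter, stood at 3.81 and 1.39 FPKM in the labelled knockdowns, against 0.0953 and 0.921 FPKM in the labelled controls, and the groups did not overlap (limma, Benjamini-Hochberg adjusted p = 0.158). SLC2A13 and SLC2A8 reached at most 1.55 FPKM in every library. Of the lactate and monocarboxylate genes 4 of 9 in the table were tested and none passed. SLC16A1, the monocarboxylate transporter MCT1, was abundant at 97.5 and 106 FPKM in the labelled knockdowns, against 75.5 and 83.9 FPKM in the labelled controls. Among 14 regulators of glycolysis, 6 were tested and none passed. HIF1A, the hypoxia factor that drives glycolytic genes, stood at 64.1 and 66.3 FPKM in the labelled knockdowns and 78.8 and 65.3 FPKM in the labelled controls. MYC, which activates several glycolytic genes, stood at 44.1 and 21.5 FPKM in the labelled knockdowns, against 0.0362 and 7.93 FPKM in the labelled controls, a wide spread that missed the threshold (limma, Benjamini-Hochberg adjusted p = 0.0990). VHL, which targets HIF1A for degradation, stood at 7.14 to 10.3 FPKM in all 4 libraries.

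Past pyruvate, 12 of 16 genes of pyruvate entry to mitochondria were tested, 2 rose and none fell. Of all tested genes, 5.11% rose and 1.46% fell. PDHB, a subunit of the first enzyme of pyruvate dehydrogenase (chromosome 13, 40161519 to 40167502), stood at 10.7 and 8.604 FPKM in the labelled knockdowns, against 2.57 and 1.21 FPKM in the labelled controls (log2 fold change 1.92, SE 0.35, adjusted p = 0.0378, limma). DLD, the shared dehydrogenase of that and related complexes (chromosome 9, 107642129 to 107668443), stood at 25.1 and 22.9 FPKM in the labelled knockdowns, against 9.78 and 8.35 FPKM in the labelled controls (log2 fold change 1.32, SE 0.27, adjusted p = 0.0475, limma). Both lost the call without any single library, with log2 fold changes of 1.57 to 2.26 for PDHB and 1.21 to 1.42 for DLD. The calls were also lost with TPM (adjusted p = 0.0527 for PDHB and 0.0983 for DLD, limma) and with a pseudocount of 0.1 (0.0537 and 0.06). PDHB passed in 6 of 16 alternatives and DLD in 5 of 16. Over the list, 5 of the 12 (41.7%) had a positive fold change, against 42.4% of all tested genes. The median was -0.08, against -0.13 over all tested genes.

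Of 13 tested genes of the citric acid cycle none rose, with a median of -0.50 and 3 positive.

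No gene of the pentose phosphate pathway (7 tested of 13), of gluconeogenesis and glycogen (5 tested of 14) or of the NADH shuttles (7 tested of 8) passed. RPIA, the ribose-5-phosphate isomerase, was the most abundant of the first list at 80.1 and 64.1 FPKM in the labelled knockdowns, against 132 and 131 FPKM in the labelled controls. PRPS2 and PRPS1, which use its product, stood at 30.4 to 48.5 and 10.3 to 10.6 FPKM over the 4 libraries. UGP2, which makes the glycogen precursor, stood at 86.3 and 106 FPKM in the labelled knockdowns, against 131 and 119 FPKM in the labelled controls. GBE1, the glycogen branching enzyme, stood at 9.71 to 14.1 FPKM in all 4 libraries. PGM2 stood at 8.43 and 15.1 FPKM in the labelled knockdowns, against 4.13 and 6.48 FPKM in the labelled controls. SLC25A13, a carrier of the malate-aspartate shuttle, stood at 23.1 and 19.9 FPKM in the labelled knockdowns, against 40.7 and 43.3 FPKM in the labelled controls. GOT2, the mitochondrial transaminase of that shuttle, stood at 12.6 and 14.9 FPKM in the labelled knockdowns, against 20.9 and 22.6 FPKM in the labelled controls. GPD1L stood at 11.5 and 19.0 FPKM in the labelled knockdowns and 16.3 and 26.4 FPKM in the labelled controls.

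Over these 9 lists 65 genes were tested, of which 3 rose and 1 fell. The 4 calls are 6.15% of the 65, close to the 5.11% higher and 1.46% lower of all tested genes, and the median of -0.13 equals that of all tested genes to 2 decimals.

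**Figure D3:**
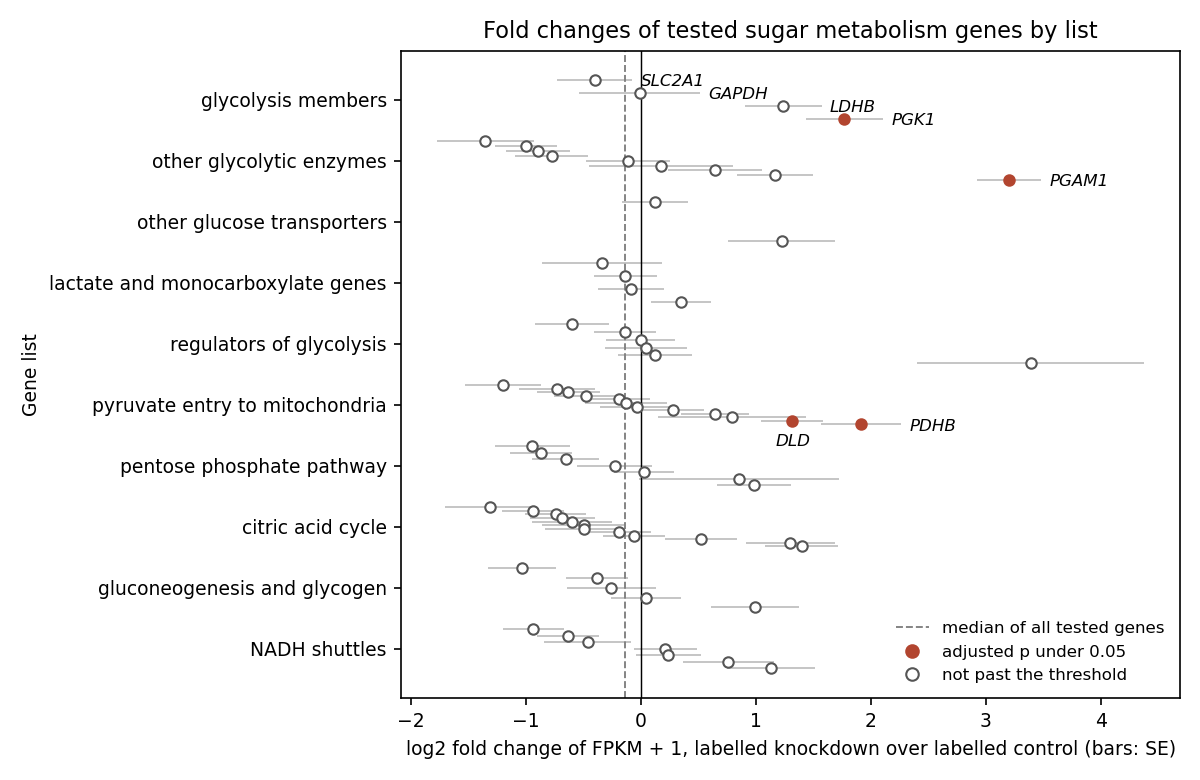
Log2 fold change of FPKM + 1 (labelled knockdown over labelled control, bars SE) of the tested genes reported here, 1 line per list; filled points passed at an adjusted p under 0.05, and the dashed line is the median of all tested genes (-0.13). PGK1, PGAM1, PDHB and DLD lie to the right, with the open points spread on both sides of the dashed line.

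**Figure D4:**
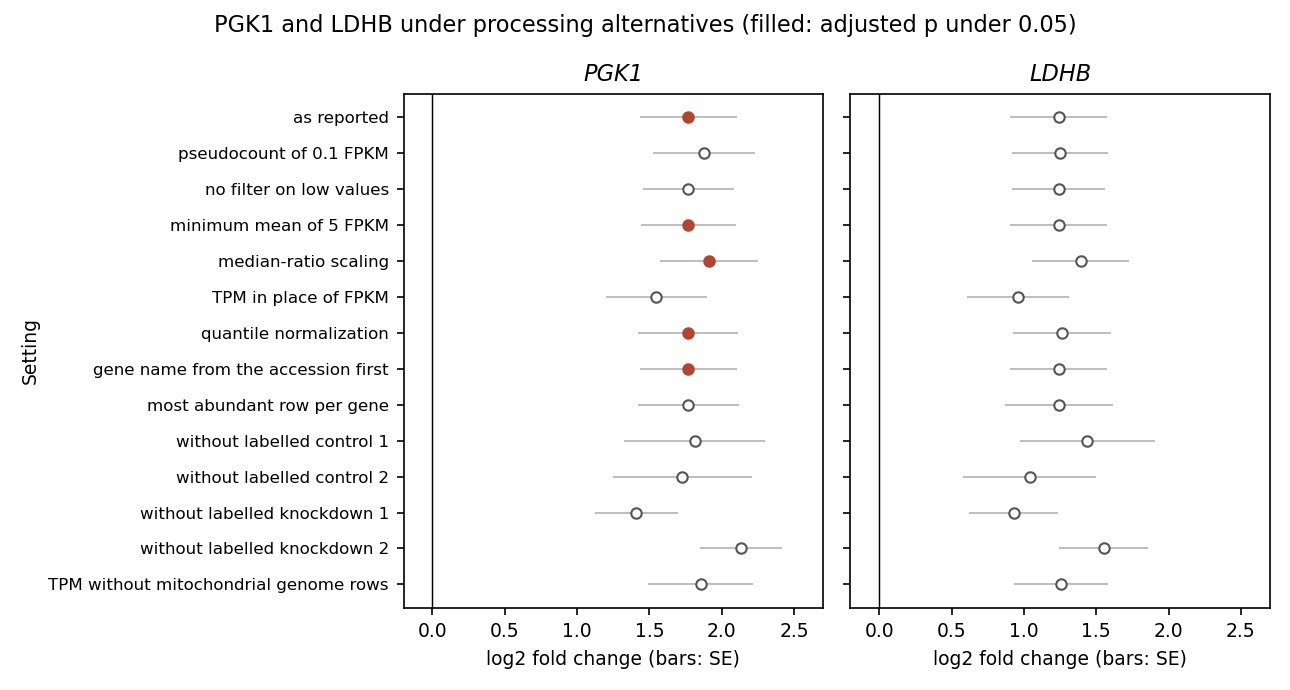
Log2 fold change (bars SE) of PGK1 and LDHB as reported and under processing alternatives, with filled points past an adjusted p of 0.05. PGK1 lies between 1.41 and 2.13 and is filled in some of them, while LDHB lies between 0.93 and 1.55 and is filled in none.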

How the data were processed

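RNA from 4-cell pig embryos was profiled in 4 libraries made with a SMARTer kit, per the labels' protocols. The submitters' processing notes name Sscrofa11.1, StringTie 2.1.7, Bowtie2 2.3.5 and cutadapt, with roles and filters not given in the sources used here. The deposited table gives, per transcript row and library, coverage (reads per base, a signal not scaled for depth), FPKM and TPM, per the file headers. A count test was foreseen, but the table holds no read counts. Coverage over FPKM was 1 constant per library, which, if StringTie's definition holds, equals 6.07 and 8.83 aligned gigabases in labelled knockdowns 1 and 2 and 6.69 and 7.03 in labelled controls 1 and 2. Exact zeros may be failed estimates.

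FPKM was summed over the rows of a gene name. Rows with a date, a 0 or a number as name took the RefSeq name of their accession. RefSeq gene coordinates are 1-based and span the gene. Where the mean reached 1 FPKM, a gene entered the limma fit (version 3.58.1, R 4.3.3, trend, no other term than group) on log2(FPKM + 1), which understates changes of low genes. P-values, two-sided, were Benjamini-Hochberg adjusted over all 9850 genes, with a threshold of 0.05. The fit was tested on simulated data. The members and lists were chosen with earlier results of these data known. Named genes are the 10 members, LDHA, HK2, PFKL, PFKM, TPI1, PGAM1, ENO2, ENO3 and SLC2A3, and from each other list the genes past the threshold or else its 3 most abundant. A gene that this rule names is counted but not reported here.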

Additional observations from a re-analysis of the deposited data

How the results depend on the processing

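The direction of PGK1, LDHB, SLC2A1, PGAM1, PDHB and DLD held under every alternative run, and LDHB and SLC2A1 passed under none. GAPDH turned positive after median-ratio scaling (0.0925) and, with single libraries left out, ranged from -0.78 to 0.76 (0.06 without labelled control 2). PGK1 lost its call with a pseudocount of 0.1 (log2 fold change 1.88), no filter (1.77), TPM (1.55), the most abundant row (1.77) and, as a choice made after seeing the data, TPM without mitochondrial rows (1.85), each leaving 0 of the 10 genes called, and without each library in turn (1.41 to 2.13, again 0 of the 10). Over all genes, calls were 312 higher and 62 lower with a pseudocount of 0.1, 320 and 124 with a minimum mean of 5 FPKM, 547 and 77 after median-ratio scaling, 120 and 33 with the most abundant row, 327 and 51 with TPM without mitochondrial rows, and 0 and 0 with no filter (1880 and 1925 unadjusted, limma). Leaving out single libraries gave 0 to 479 higher and 0 to 47 lower; the zeros came without labelled knockdown 1 (978 and 811 unadjusted, limma) or 2 (1413 and 1261). In those fits a group has 1 library, which is assumed to vary like the others. Of the 65 other sugar metabolism genes, 1 was higher with a pseudocount of 0.1, TPM, the most abundant row or TPM without mitochondrial rows, and 0 with no filter (0 lower with the last and with the most abundant row); single libraries left out gave 0 to 3 higher and 0 lower. The cause of these losses was not tested.

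The labels do not say that equal replicate numbers mark shared embryos, and deviations of same-numbered libraries correlated at -0.143 over 9850 genes. With a replicate block limma called 125 genes higher and 8 lower, 0 of the 10 members (PGK1 1.77, adjusted p = 0.074) and 1 higher and 0 lower of the other sugar metabolism genes. With crossed pairing, added after seeing the data, 611 were higher and 119 lower. With 2 libraries a group, depth was not set against the spread between libraries.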
